A study of Mus musculus with 4 samples.

Results

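The 9 genes described here encode osteopontin (Spp1), fibronectin (Fn1), the hyaluronan receptor Cd44, the transmembrane glycoprotein Gpnmb, the galectins Lgals1, Lgals3, Lgals8 and Lgals9, and the galectin-binding glycoprotein Lgals3bp. They were taken by gene symbol, as products often measured in macrophages of repairing tissue, and they make up 9 of the 7280 genes with counts. Transcripts were counted by serial analysis of gene expression (SAGE), which reads one short tag beside a CATG site cut by the enzyme NlaIII and so counts transcripts without regard to their length. The cells were labelled alveolar macrophages, the resident phagocytes of the lung air spaces, of wild-type BALB/c mice. The Day 21 AM group came from mice that carried lung metastases 21 days after BNL cells, a mouse hepatocellular carcinoma line, had been put into a vein. The Pre AM group came from untreated mice, which are not described as sham-injected, so the effects of injection and of metastases cannot be told apart. Each group had 2 libraries. The sources used here give neither the age of the mice nor whether a library held 1 mouse or a pool. The p-values therefore reflect the spread between samples of unknown origin, and that spread may be technical.

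Osteopontin is a secreted phosphoprotein that binds integrins and Cd44, and fibronectin is an adhesive glycoprotein of the extracellular matrix that also binds integrins. Galectins are lectins that bind beta-galactoside sugars on glycoproteins, both outside the cell and on damaged endosomes and lysosomes. Gpnmb is found at the cell surface and in lysosomes and phagosomes, and its gene is a known target of the MiT family of transcription factors. In lung, Spp1 and Gpnmb are widely used as markers of lipid-laden and scar-associated macrophages.

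The libraries held 1783814 and 1630776 tags in Day 21 AM and 1962569 and 2198563 tags in Pre AM. Counts of 1 do not occur, so a tag listed at 0 may have been read once. Of 16 alveolar macrophage markers, 15 had counts. Siglecf was present at 21.1 and 20.0 CPM in Day 21 AM and 27.5 and 37.2 CPM in Pre AM, where CPM are counts scaled to a library of 1000000 tags after TMM normalisation. Fabp4 was at 0 in all 4 libraries, and Marco was at 0 in all but Pre AM replicate 1, where it had 2 counts. No T or NK cell, B cell, endothelial or dendritic cell marker that the tables list had a count. They list only 5 of 10 T or NK cell, 3 of 7 B cell, 4 of 6 endothelial and 1 of 7 dendritic cell markers. The absence of such cells was thus not shown.

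The tags below include the most abundant tag of each of the 9 genes and are shown because they are the sequences that were measured. Capitals mark the NlaIII site and lower case the 21 bases of the tag. Positions are a match of the tag to GENCODE M21 transcripts on GRCm38. Of 65 tags listed for the 9 genes, 52 had counts, and each of the 65 matched its own gene alone.
Spp1 tag 1: CATGcaaacaccgttgtaaccaaaa
Gpnmb tag 1: CATGcagatagcagatgtccccatg
Gpnmb tag 2: CATGgaagcctgtacgatcatctcc
Gpnmb tag 3: CATGcctgagctcctgacaaaatta
Gpnmb tag 4: CATGccctcccccttcgccttcgac
Gpnmb tag 5: CATGgaaagtctctgcggggtcctg
Cd44 tag 1: CATGcaggtatgggttcatagaagg
Cd44 tag 2: CATGctagagcatctgagcctgctg
Fn1 tag 1: CATGccaacgctttactactgtgga
Lgals1 tag 1: CATGgcggcggatggagacttcaag
Lgals3 tag 1: CATGggggaaccagcctggggcagg
Lgals3 tag 2: CATGatctaagccagaaggggcggc
Lgals3 tag 3: CATGggcacagtgaaacccaacgca
Lgals8 tag 1: CATGcaaatttattatgttcactct
Lgals9 tag 1: CATGgctgtcagcccatagtctgag
Lgals3bp tag 1: CATGaggtcctgtgggatttcctgt
Lgals3bp tag 2: CATGtcttctgttaagtgcttgcac

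The comparison asked which of these genes differ in alveolar macrophages when the lung carries metastases. None of them passed the test, although Gpnmb came close and was 10.1-fold higher in Day 21 AM. Osteopontin had the highest mean level of the 9 and differed between groups by less than its 2 untreated libraries did from each other. Galectin-3 and galectin-8 likewise overlapped between groups, while galectin-1 and Lgals3bp were higher in both Day 21 AM libraries without passing. In bulk samples a change per cell cannot be told apart from a change in the mix of cells.

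Of the 9 genes, 7 had enough counts to be tested, and 0 were called higher or lower in the edgeR quasi-likelihood test with a Benjamini-Hochberg adjusted p under 0.05. Over all 2993 genes tested, 0.668% were called higher and 0.0668% lower. Without adjustment, 2 of the 7 had a p under 0.05 and were higher (Gpnmb and Lgals3bp), and 0 were lower, against 3.54% and 2.14% of all tested genes. The 2 Day 21 AM libraries lay above both Pre AM libraries for 3 of the 7 (Gpnmb, Lgals1 and Lgals3bp), and for 0 of the 7 did they lie below both. Of all tested genes, 15.2% had Day 21 AM wholly above and 16% wholly below. A gene that reaches the count filter only through the group where it is high is bound to differ, so these counts describe the 7 tested genes and not all 9.

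**Figure D1:**
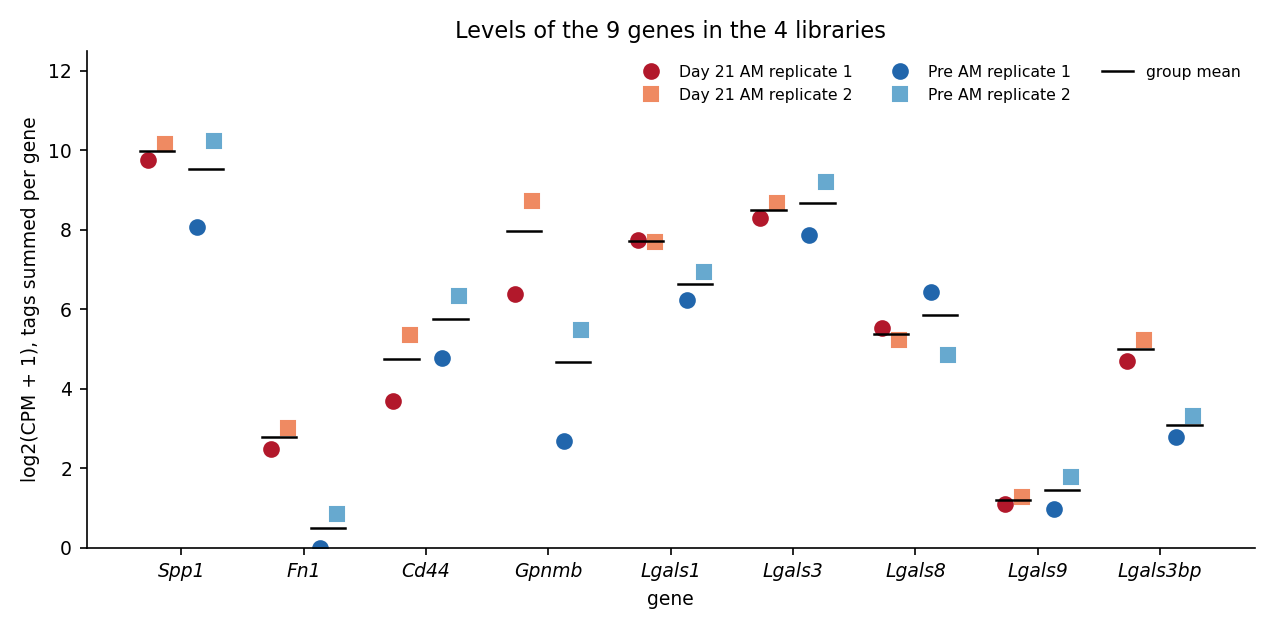
Level of each of the 9 genes in each library, as log2(CPM + 1) of all tags of the gene (vertical axis), with Day 21 AM left of Pre AM for each gene and black lines at the group means on the CPM scale. The Day 21 AM points lie above both Pre AM points for Fn1, Gpnmb, Lgals1 and Lgals3bp, and the 2 groups overlap for the other 5 genes.

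Among the secreted ligands, Spp1 was at 869 and 1148 CPM in Day 21 AM (1523 and 1611 counts) and at 266 and 1198 CPM in Pre AM (541 and 2931 counts). The highest and the lowest of the 4 values were both Pre AM libraries, so the groups overlapped. The means were 1009 ± 197 and 732 ± 659.7 CPM (SD, n = 2 per group), a log2 change of 0.46 ± 0.62 (SE, edgeR adjusted p = 0.998). The 95% interval of the change ran from -0.82 to 1.74, so a moderate difference either way was not detectable in this design. Pre AM replicate 2 was 4.51-fold above Pre AM replicate 1, and 3.27% of the tested genes differed at least as far in that direction on the log2(CPM + 1) scale. Without Pre AM replicate 1 the log2 change of Spp1 was -0.24, and without Pre AM replicate 2 it was 1.95, neither past the threshold.

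Some other readouts were also higher in Pre AM replicate 2 than in replicate 1, while the lung epithelial markers went the other way (summed level 55.9 CPM in replicate 1 and 35.2 CPM in replicate 2). Of the 9 genes, 8 were higher in Pre AM replicate 2 than in replicate 1, and Lgals8 was the exception. The 8 include Fn1 and Lgals9, which were too rare to be tested, whereas the share over all tested genes was 52.4%. The summed level of the 15 detected alveolar macrophage markers was 1705 and 3863 CPM in Day 21 AM and 1209 and 2833 CPM in Pre AM. Most of that sum was Chil3, which monocytes also express, and Ear2. Siglecf, Itgax, Plet1 and Mrc1 were lower in both Day 21 AM libraries than in both Pre AM libraries, whereas Car4, Chil3, Ear1, Ear2, Pparg and Lpl overlapped between groups. Ctsk, Krt79, Cidec and Atp6v0d2, also on the alveolar macrophage marker list, were not sorted in this way. Of all tested genes, 16% had Day 21 AM wholly below. Itgax was at 36.5 and 50.6 CPM in Day 21 AM and 65.8 and 74.8 CPM in Pre AM. Plet1 was at 29.7 and 59.9 CPM in Day 21 AM and 101 and 140.2 CPM in Pre AM. The 6 detected neutrophil markers summed to 75.9 and 280.0 CPM in Day 21 AM and 10.8 and 159 CPM in Pre AM, mostly from Camp, the cathelicidin peptide of neutrophil granules, with Cxcr2 at 0 throughout. Hba-a1, a haemoglobin chain of red cells, was at 23.4 and 62.0 CPM in Day 21 AM and 32.9 and 149 CPM in Pre AM. Their part in the levels of Spp1 was not tested.

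The counts of Spp1 came almost wholly from its last NlaIII site. Tag 1 lay in the 3' UTR (chromosome 5, 104440784 to 104440808, plus strand, exon 7 of 7), 267 bases from the 3' end. It held 91.2% and 93.7% of the Spp1 counts in Day 21 AM and 97.0% and 92.4% in Pre AM. By the Clopper-Pearson method, the exact 95% intervals were 89.7% to 92.6%, 92.4% to 94.9%, 95.2% to 98.3% and 91.4% to 93.4%, and they cover counting error only. All 9 listed Spp1 tags had counts, and the other 8 lay upstream, in or at the edge of the coding sequence. Pre AM replicate 1 was at 0 for 5 of these 8 tags and had 2 to 8 counts for the other 3. Tags 2, 3 and 4 gave log2 changes of 1.14 ± 0.98, -0.06 ± 0.87 and 0.44 ± 0.84 (SE), and none passed.

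Fn1 was rare, with 8 and 10 counts in Day 21 AM and 0 and 2 counts in Pre AM, or 4.57 and 7.13 CPM against 0 and 0.82 CPM. Both Day 21 AM libraries were above both Pre AM libraries, but the gene was below the count filter and was not tested. The ratio of its summed counts, 18 against 2, was 12.8 after scaling, with an exact 95% counting interval of 3.06 to 114. That interval covers counting error only and leaves out tags read once. Of 12 Fn1 tags listed, 3 had counts, and tag 1, in the 3' UTR 58 bases from the 3' end (chromosome 1, 71585557 to 71585581, minus strand), held 4 and 4 counts in Day 21 AM and 0 and 2 in Pre AM. Of the tags deposited under other symbols, 3 carry Fn1 among the genes of their annotation, and none was added to Fn1. The tag under Ogdh matched transcripts of 21 genes and had 346 and 403 counts in Day 21 AM and 372 and 837 in Pre AM. The tag under Tceal8 matched 6 genes and had 10 and 6 counts in Day 21 AM and 9 and 27 in Pre AM, and the third was at 0 in every library.

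Cd44, the receptor for hyaluronan and a receptor for osteopontin, was at 11.99 and 39.9 CPM in Day 21 AM (21 and 56 counts) and at 26.5 and 79.7 CPM in Pre AM (54 and 195 counts). The groups overlapped, and in each the library of replicate 2 was about as far above that of replicate 1 (3.33-fold and 3.01-fold). The log2 change was -1.04 ± 0.75 (SE), with a 95% interval from -2.57 to 0.49 and an adjusted p of 0.998 (edgeR). It was -2.11 without Day 21 AM replicate 2 and -0.0080 without Pre AM replicate 2.

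The tags of Cd44 did not keep to 1 proportion. Tag 1 spans the junction of exons 2 and 3 (chromosome 2, minus strand, between 102861679 and 102865287), in the coding sequence far from the 3' end. It held 57.1% and 62.5% of the Cd44 counts in Day 21 AM and 7.41% and 55.4% in Pre AM. In Pre AM replicate 1 it was 4 of 54 counts (exact 95% interval 2.06% to 17.9%), while the intervals of the other 3 libraries started at 34.0% or above. Tag 2, in the 3' UTR (exon 19 of 19, 102813265 to 102813289), had 6 and 11 counts in Day 21 AM and 36 and 24 in Pre AM. Tag 2 was thus lower in both Day 21 AM libraries, whereas tag 1 overlapped with 12 and 35 counts in Day 21 AM and 4 and 108 in Pre AM. Their log2 changes were -1.34 ± 0.82 and -0.51 ± 1.05 (SE), and neither passed. The difference between the tags was not tested.

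Gpnmb had the largest change among the tested members. It was at 82.2 and 419.7 CPM in Day 21 AM (144 and 589 counts) and at 5.40 and 43.8 CPM in Pre AM (11 and 107 counts). All Day 21 AM values were above all Pre AM values, although the libraries of a group differed 5.11-fold and 8.10-fold. The means were 251 ± 239 CPM in Day 21 AM and 24.6 ± 27.1 CPM in Pre AM (SD, n = 2 per group). The log2 change was 3.34 ± 0.85 (SE), with a 95% interval from 1.59 to 5.09 and an adjusted p of 0.0694 in edgeR's quasi-likelihood test.

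This gene lay near the threshold, and the choice of method decided its call. It was called higher in 9 of 17 alternative fits, with adjusted p from 2.37e-05 to 0.9998 over all 17. Among the calls were DESeq2 (log2 change 3.39, adjusted p = 0.0201) and limma-voom (3.51, adjusted p = 0.0317), and edgeR's robust prior was not among them (adjusted p = 0.698). Leaving out single libraries also moved the value. The log2 change was 1.76 without Day 21 AM replicate 2 and 2.52 without Pre AM replicate 1, where it did not pass. It was 4.15 without Day 21 AM replicate 1 and 5.55 without Pre AM replicate 2, where it did.

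**Figure D2:**
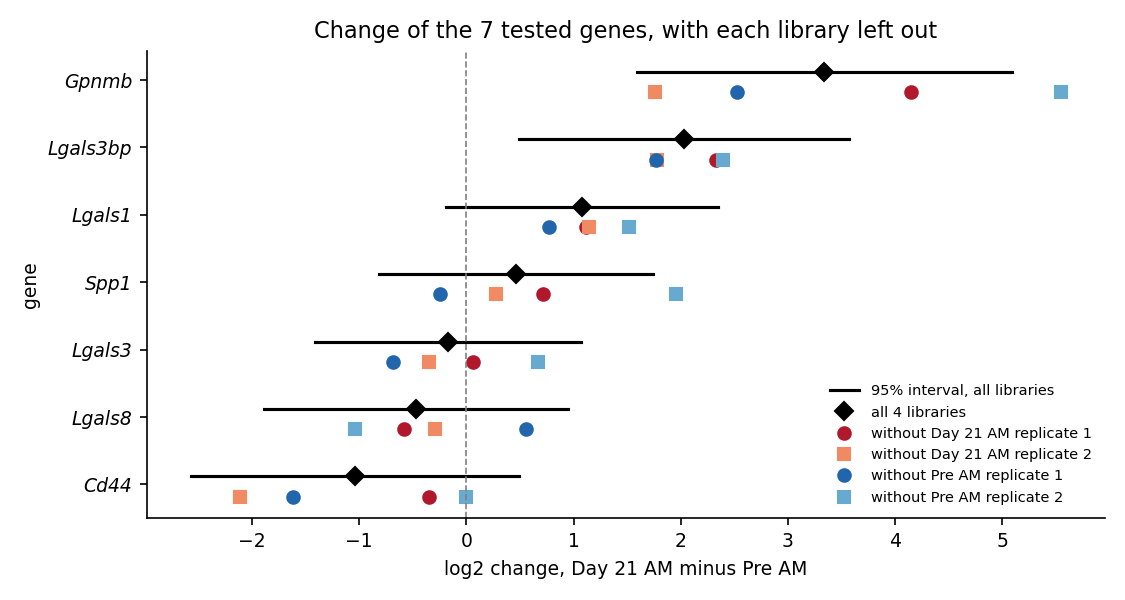
Log2 change (Day 21 AM minus Pre AM, horizontal axis) of the 7 tested genes with all 4 libraries (black, with 95% interval) and with each library left out (coloured). Gpnmb, Lgals3bp and Lgals1 stay above 0 in all 4 of these fits, Cd44 stays at or below 0 down to -2.11, and Spp1, Lgals3 and Lgals8 change sign.

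The counts of Gpnmb were spread over the transcript in a way that those of Spp1 were not. All 14 listed tags had counts, none lay nearer the 3' end than the ninth of the 28 NlaIII sites of the annotated transcript, and 71.6% of the counts fell in the coding sequence. Tags 1 and 2 lie on chromosome 6 in coding exons 8 and 9 of 11 (49051046 to 49051070 and 49051824 to 49051848, plus strand). Tag 3 lies in the 3' UTR of exon 11 (49056691 to 49056715).

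Tag 1 had 24 and 250 counts in Day 21 AM and 0 and 20 in Pre AM. Tag 2 had 45 and 96 counts in Day 21 AM and 2 and 15 in Pre AM. Tag 3 had 34 and 69 counts in Day 21 AM and 7 and 24 in Pre AM. These 3 tags were all higher in both Day 21 AM libraries, as was tag 5, with 16 and 55 counts against 0 and 14. Tag 4 overlapped, with 7 and 85 counts in Day 21 AM and 0 and 26 in Pre AM. Day 21 AM replicate 2 had the highest count of the 4 libraries for each of the 5 tags.

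The 5 tested tags of Gpnmb had log2 changes of 4.51, 3.68, 2.35, 2.57 and 3.02 for tags 1 to 5, and none passed over the 3907 tags tested (smallest adjusted p = 0.222). Of the 18 tags of the 9 genes that were tested, 0 were called in either direction, against 0.358% of all tested tags called higher and 0% lower. Before adjustment, p was under 0.05 for 6 of the 18, all higher (4 of Gpnmb and 2 of Lgals3bp), and for 0 that were lower, against 3.51% and 1.38% of all tested tags. All 6 had a count under the minimum of 10 in at least 1 Pre AM library, and tags that pass the filter through the group where they are high are bound to differ, so these counts are a description. Both Day 21 AM values lay above both Pre AM values for 7 of the 18 and below both for 2, against 17% and 14.8% of all tested tags. Tags of 1 gene share their transcripts and are not independent. Tag 1 took 16.7% and 42.4% of the Gpnmb counts in Day 21 AM and 0% and 18.7% in Pre AM, so its share, like its level, was highest in Day 21 AM replicate 2.

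**Figure D3:**
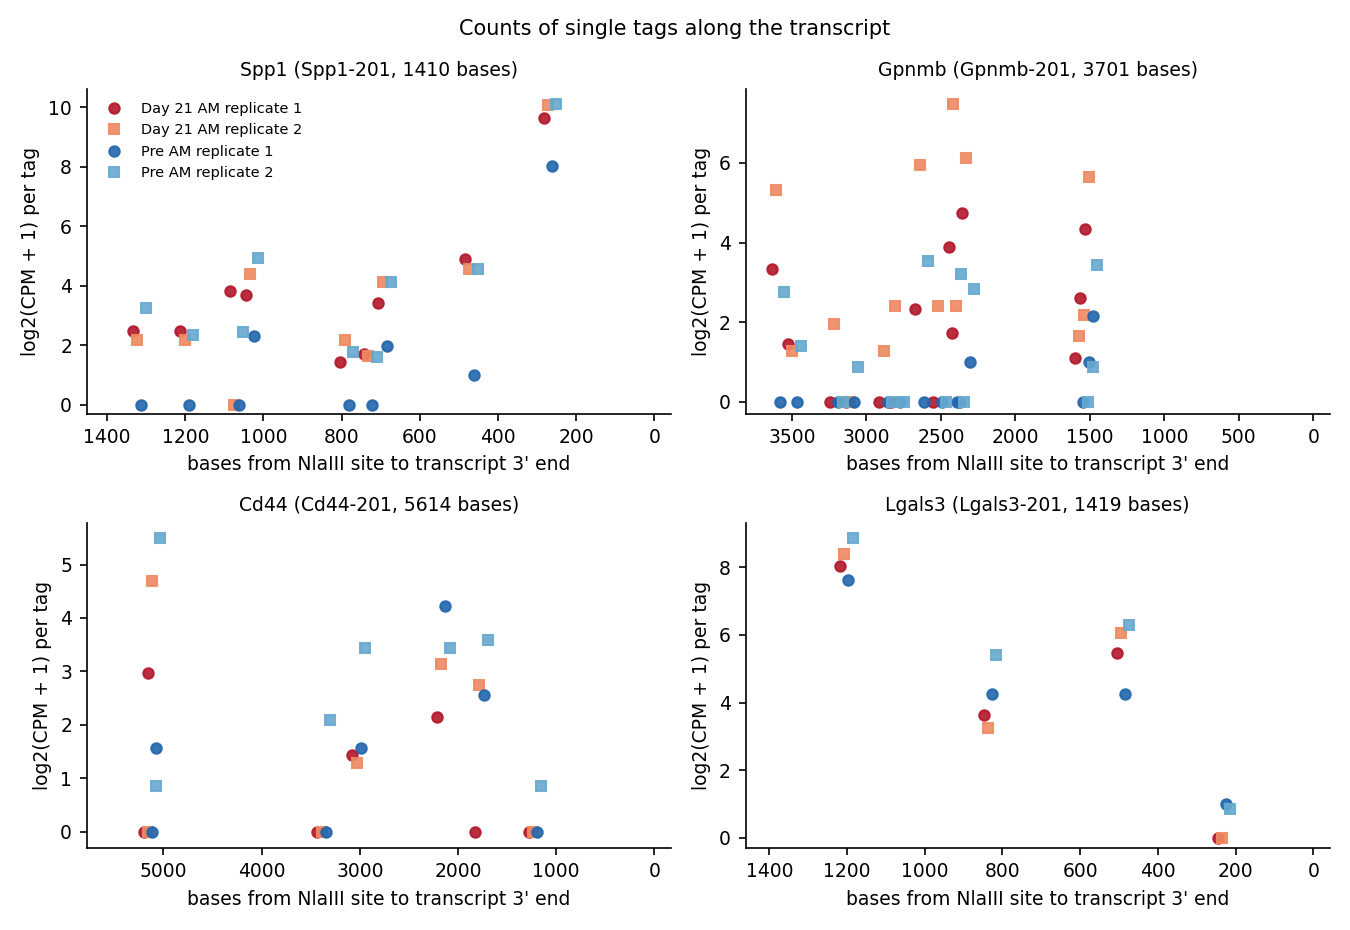
Level of every counted tag of Spp1, Gpnmb, Cd44 and Lgals3 in each library, as log2(CPM + 1) (vertical axis), against the distance in bases from its NlaIII site to the 3' end of the transcript named above the panel (horizontal axis, 3' end at the right, with the 4 libraries shifted slightly sideways at each site). Spp1 has 1 dominant tag 267 bases from the 3' end, Gpnmb has its counts spread over 5 main tags further upstream, and the dominant tag of Lgals3 is the one farthest from the 3' end.

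Markers of other macrophages and of some other cells differed between groups alongside Gpnmb, Lgals3bp, Lgals1 and Fn1. Of 14 markers of interstitial or monocyte-derived macrophages, 11 had counts, and their summed level was 2313 and 3356 CPM in Day 21 AM and 55.5 and 101 CPM in Pre AM. Most of it was Apoe, while Folr2 and Cd163 were at 0 in every library and Cx3cr1 was not analysed here. Of 9 monocyte markers, 4 had counts, and Ly6c2 was at 26.3 and 40.6 CPM in Day 21 AM and 1.96 and 15.9 CPM in Pre AM. Platelet factor Pf4, also on the first of these lists and the 1 platelet marker of 5 with counts, was at 20.0 and 26.4 CPM in Day 21 AM and 0 and 1.64 CPM in Pre AM. The 1 fibroblast marker of 7 with counts, Dcn, was at 2.28 and 2.85 CPM in Day 21 AM and 0 in both Pre AM libraries. Of 12 lung epithelial markers, 3 had counts, mostly Epcam, with a summed level of 24.0 and 6.41 CPM in Day 21 AM and 55.9 and 35.2 CPM in Pre AM, while Cdh1 and Sftpa1 were at 0. The part of such cells in the levels of these 4 genes was not tested. Of 10 hepatocellular markers only 3 are in the tables. Krt8 and Krt18 were at 0 throughout and Afp had 3 counts in Pre AM replicate 2 alone.

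Galectin-1 (Lgals1), a small galectin secreted by many cells, was at 212 and 205 CPM in Day 21 AM (371 and 287 counts) and at 74.1 and 122 CPM in Pre AM (151 and 299 counts). Both Day 21 AM libraries were higher and differed by only 1.04-fold. The means were 208 ± 5.12 and 98.2 ± 34.0 CPM (SD, n = 2 per group), and the log2 change was 1.08 ± 0.62 (SE, edgeR adjusted p = 0.986), with a 95% interval from -0.19 to 2.35. Tag 1, in the coding sequence of exon 4 of 4 (chromosome 15, 78930096 to 78930120, plus strand), held 92.0% to 98.7% of the Lgals1 counts in each library.

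Galectin-3 (Lgals3), long known as the macrophage antigen Mac-2, was at 314 and 409.7 CPM in Day 21 AM (550 and 575 counts) and at 233 and 584 CPM in Pre AM (474 and 1429 counts). As with Spp1, the lowest and the highest value were both Pre AM libraries. The log2 change was -0.18 ± 0.60 (SE, edgeR adjusted p = 0.998), with a 95% interval from -1.42 to 1.07. Its sign changed without Pre AM replicate 2 (0.66) and without Day 21 AM replicate 1 (0.065).

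The main tag of Lgals3 lay at the first of the 7 NlaIII sites of the annotated transcript, in the coding sequence of exon 3 of 6 (chromosome 14, 47380108 to 47380132, plus strand), 1202 bases from the 3' end. The same site is the last one of shorter annotated transcripts of the gene. It held 82.7% and 81.7% of the Lgals3 counts in Day 21 AM and 84.0% and 79.5% in Pre AM, so this share varied little between libraries while the level differed. Tag 2, at the end of the coding sequence in exon 6 (47385671 to 47385695), overlapped with 75 and 93 counts in Day 21 AM and 37 and 189 in Pre AM, a log2 change of 0.21 ± 0.75 (SE) that did not pass. Tag 3, in the coding sequence of exon 4, had 20 and 12 counts in Day 21 AM and 37 and 102 in Pre AM. Both Day 21 AM libraries were below both Pre AM libraries. Its log2 change of -1.56 ± 0.76 (SE) missed the threshold (edgeR adjusted p = 0.999).

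Galectin-8 (Lgals8), a tandem-repeat galectin that marks damaged endosomes for autophagy, was at 45.1 and 36.3 CPM in Day 21 AM (79 and 51 counts) and at 85.4 and 27.8 CPM in Pre AM (174 and 68 counts). It was the 1 member higher in Pre AM replicate 1 than in replicate 2, and the groups overlapped. The log2 change was -0.47 ± 0.69 (SE, edgeR adjusted p = 0.998), with a 95% interval from -1.89 to 0.94. It was 0.56 without Pre AM replicate 1. Tag 1, in the 3' UTR at the last NlaIII site (chromosome 13, 12439791 to 12439815, minus strand), held 85.3% to 96.0% of the counts in each library.

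Galectin-9 (Lgals9), another tandem-repeat galectin and a ligand of the receptor Havcr2, had 2 and 2 counts in Day 21 AM and 2 and 6 in Pre AM, all from tag 1 in the 3' UTR (chromosome 11, 78963201 to 78963225, minus strand). It was below the count filter. The ratio of its summed counts was 0.71 with an exact 95% counting interval of 0.157 to 2.65, so no difference was detectable at this depth.

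Lgals3bp, a secreted glycoprotein that binds galectin-3, was at 25.1 and 36.3 CPM in Day 21 AM (44 and 51 counts) and at 5.89 and 8.996 CPM in Pre AM (12 and 22 counts). The groups did not overlap, and the gap between them was wider than the gap within either. The means were 30.7 ± 7.94 and 7.44 ± 2.20 CPM (SD, n = 2 per group). The log2 change was 2.03 ± 0.75 (SE), with a 95% interval from 0.49 to 3.57, an unadjusted p of 0.0118 and an adjusted p of 0.483 (edgeR). In the 17 alternative fits it ran from 1.61 to 2.39 and was not called in any of them.

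Both abundant tags of Lgals3bp were higher in Day 21 AM. Tag 1, in the 3' UTR at the last NlaIII site (chromosome 11, 118392819 to 118392843, minus strand), had 29 and 25 counts in Day 21 AM and 8 and 17 in Pre AM. Tag 2, in the coding sequence of exon 6 (118394068 to 118394092), had 10 and 19 counts in Day 21 AM and 2 and 2 in Pre AM. The log2 changes were 1.64 ± 0.76 and 3.30 ± 1.06 (SE), and neither passed (edgeR adjusted p = 0.999 and 0.515).

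Ordered by mean level in Day 21 AM, the 9 genes ran Spp1, Lgals3, Gpnmb, Lgals1, Lgals8, Lgals3bp, Cd44, Fn1 and Lgals9. In Pre AM the order was Spp1, Lgals3, Lgals1, Lgals8, Cd44, Gpnmb, Lgals3bp, Lgals9 and Fn1. These are tag levels per transcript and not per length. Spp1 ranked 102 of 7280 genes in Day 21 AM and 129 in Pre AM, Lgals3 234 and 209, and Gpnmb 301 and 1350. In Day 21 AM the values of Spp1 stood apart from those of every other member. Those of Gpnmb enclosed those of Lgals3 and those of Lgals1. Cd44 overlapped with Lgals8 and Lgals3bp, which met at 36.3 CPM. In Pre AM the values of Spp1 and Lgals3 overlapped, as did those of Lgals1, Lgals8 and Cd44. The range of Gpnmb overlapped with Lgals8 and Cd44 and enclosed that of Lgals3bp.

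The 3 tested genes with the most similar pattern were then found for Spp1, Gpnmb and Lgals3, as the smallest distance between mean-centred log2(CPM + 1) profiles over the 4 libraries among 2835 genes. For Spp1 they were Psmb3, a proteasome subunit, Rn28s1, a ribosomal RNA gene, and Lpcat3, a phospholipid-remodelling enzyme (distances 0.19, 0.28 and 0.31). Rn28s1 had 289 and 252 counts in Day 21 AM and 83 and 556 in Pre AM, low in the same untreated library as Spp1. For Gpnmb they were Gpd1, the glycerol-3-phosphate dehydrogenase, Zmiz1 and Washc5 (distances 0.66, 1.17 and 1.36). Gpd1 had 41 and 119 counts in Day 21 AM and 0 and 18 in Pre AM. For Lgals3 they included Emp3 and Reep5 (distances 0.037 and 0.051). With 4 libraries many genes share a profile, so this is a description of these libraries.

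Genes of the surrounding pathways were counted next, beside all 2993 tested genes, of which 20 rose and 2 fell with a median log2 change of -0.07. Among 35 tissue-repair and lipid-associated macrophage genes, 22 were tested. Of these, 6 rose, 0 fell and 16 did not pass, with a median log2 change of 1.08. The list was drawn up with earlier results of these data known. Of its called genes, Igf1, Mmp14, Trem2 and Pla2g7 would not have reached the count filter on their Pre AM libraries alone. The count and median of the list are therefore a description. The 6 were Apoe, Cd63, Mmp14, Trem2, Pla2g7 and Igf1, and 3 of the list passed with total counts, with limma-voom, with tags of 1 gene only and with the main tag only. Cd63, a tetraspanin of late endosomes, had 715 and 852 counts in Day 21 AM and 18 and 27 in Pre AM (log2 change 5.66 ± 0.73 SE, edgeR adjusted p = 3.95e-05). Trem2, a lipid-sensing receptor, had 59 and 193 counts in Day 21 AM and 10 and 26 in Pre AM (log2 change 3.44 ± 0.80 SE, edgeR adjusted p = 0.0378).

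Igf1, insulin-like growth factor 1, had 11 and 19 counts in Day 21 AM and is listed at 0 in both Pre AM libraries. Its Day 21 AM level was 3.42-fold that of 6.43 counts per Pre AM library. At that expected count its 3 listed tags, at equal rates, would all show 0 in 1 library with a probability of 5%. For both Pre AM libraries together the probability would be lower, so this level was set by 1 library alone. The ratio takes the Day 21 AM counts as exact and leaves out the spread between libraries, so it is not a lower limit of the change. With Igf1 at that level the median of the list was bound to stay the same, as a log2 change of 1.78 still lies above it. Without Pre AM replicate 1, 0 of the list and 0 of all genes passed (edgeR, with 137 genes at an unadjusted p under 0.05), and without Day 21 AM replicate 2, 3 of the list did. Trem2 was at a log2 change of 2.13 without Day 21 AM replicate 2, 4.19 without Day 21 AM replicate 1 and 4.13 without Pre AM replicate 2. Of those that did not pass, the protease legumain (Lgmn) and the cathepsins Ctsb and Ctsl came nearest, with log2 changes of 2.25, 1.55 and 1.82 (edgeR adjusted p = 0.163, 0.350 and 0.684).

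Among 26 genes of the extracellular matrix, 6 were tested, and 2 rose (Mmp14, a membrane-bound metalloproteinase, and Ecm1, extracellular matrix protein 1), 0 fell and 4 did not pass. Ecm1 had 924 and 1721 counts in Day 21 AM and 110 and 104 in Pre AM (log2 change 4.18 ± 0.68 SE, edgeR adjusted p = 0.000575). It did not pass without Day 21 AM replicate 2 (log2 change 3.48) or without Pre AM replicate 1 (4.37), a fit in which 0 genes passed. Mmp14 had 277 and 142 counts in Day 21 AM and 3 and 2 in Pre AM. Plau, the urokinase plasminogen activator, had 24 and 25 counts in Day 21 AM and 2 and 7 in Pre AM and did not pass (edgeR adjusted p = 0.159). The collagens Col1a1, Col1a2 and Col3a1 were at 0 in every library. Dcn, the matrix proteoglycan decorin and a fibroblast marker, had 4 and 4 counts in Day 21 AM and 0 and 0 in Pre AM.

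Among the integrin receptors and the hyaluronan genes and Cd44 partners there was no call. Of 11 integrin chains that bind osteopontin or fibronectin, 3 were tested and 0 passed. Itgb5 is one of them, and its libraries disagreed within both groups, with 2299 and 75 counts in Day 21 AM and 1457 and 672 in Pre AM. Itgb1 was nearly level, at 119 ± 1.61 CPM in Day 21 AM and 110 ± 5.63 CPM in Pre AM (SD, n = 2 per group). Itga4 was lower in both Day 21 AM libraries, with 6 and 5 counts against 12 and 18 in Pre AM. Its log2 change of -0.91 ± 0.93 (SE) did not pass. Of 20 hyaluronan genes and Cd44 partners, 4 were tested and 0 passed. Cd74, the invariant chain and a partner of Cd44, had 501 and 567 counts in Day 21 AM and 129 and 644 in Pre AM, and ezrin (Ezr), which links Cd44 to actin, had 44 and 199 counts in Day 21 AM and 35 and 644 in Pre AM.

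Of 21 enzymes that build or trim galectin-binding sugars, 6 were tested and 0 passed, with a median log2 change of 0.40. B4galt1, a galactosyltransferase, had 72 and 67 counts in Day 21 AM and 74 and 51 in Pre AM. Of 17 glycoproteins bound by galectins, 11 were tested, 2 rose (Cd63 and Trem2, both counted above), 0 fell and 9 did not pass, with a median of 0.38. Havcr2, the Tim-3 receptor, had 103 and 101 counts in Day 21 AM and 34 and 79 in Pre AM (log2 change 1.41 ± 0.68 SE, edgeR adjusted p = 0.858). Ptprc, the leukocyte antigen CD45, had 12 and 13 counts in Day 21 AM and 27 and 73 in Pre AM and did not pass (edgeR adjusted p = 0.947).

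Of 12 MiT factors and genes linked with Gpnmb, 4 were tested and 0 passed. Sdc4, a heparan sulfate proteoglycan that binds Gpnmb, had 10 and 19 counts in Day 21 AM and 0 and 4 in Pre AM (log2 change 3.37 ± 1.14 SE, edgeR adjusted p = 0.354). Flcn, a regulator of these factors, had 18 and 25 counts in Day 21 AM and 5 and 18 in Pre AM. Sqstm1, also on this list, was lower in both Day 21 AM libraries, with 67 and 43 counts against 97 and 152 in Pre AM. Its log2 change of -0.67 ± 0.66 (SE) did not pass. Of 7 other galectin genes, Lgals4 alone had counts, 5 in Pre AM replicate 1 and 0 in the other 3 libraries.

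**Figure D4:**
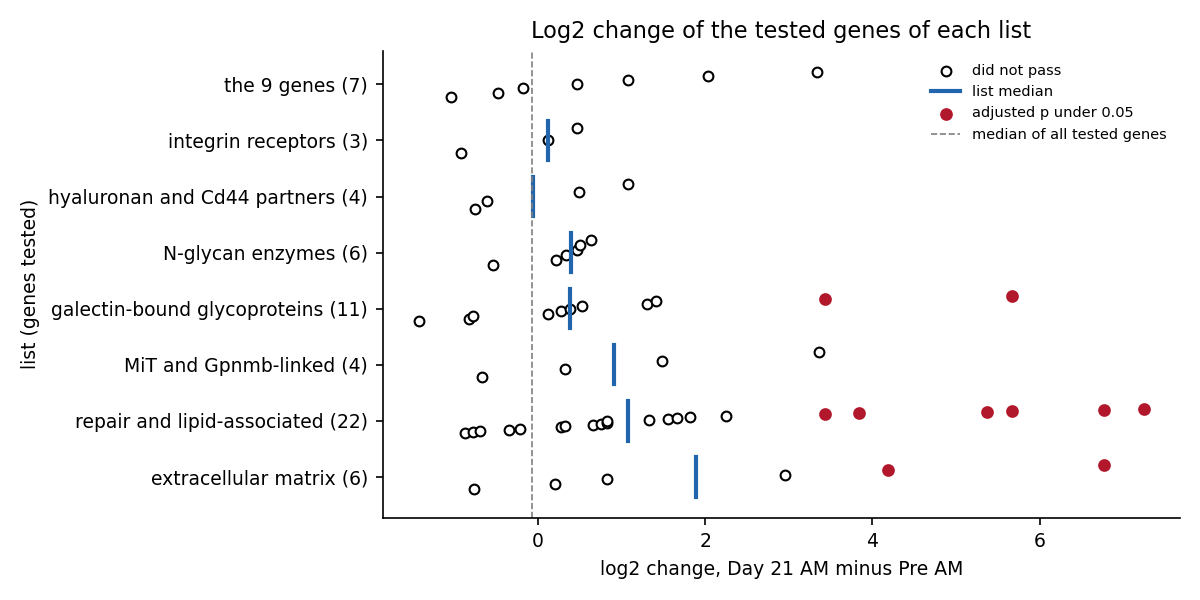
Log2 change (Day 21 AM minus Pre AM, horizontal axis) of every tested gene of the 9-gene set and of each list, with the number tested in brackets, filled points for an adjusted p under 0.05, blue lines at list medians and a dashed line at the median of all tested genes. The filled points are 6 in the repair list, 2 in the matrix list and 2 in the galectin-bound list, some of them shared. The rightmost point of the repair list is Igf1, whose fitted position rests on Pre AM counts of 0.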

How the data were processed

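The authors' deposited tables give raw tag counts, 1 count per 21-base tag with a gene symbol and RefSeq accession, per the file headers. Per the submitters' processing notes the build was mm9. How tags were assigned to genes, and why counts of 1 do not occur, is not given in the sources used here. PCR copies carry no molecular identifiers, so intervals cover counting error only. The 4 tables list the same 30627 tags. Genes were named through RefSeq accessions (GRCm38.p6 table, 29346 tags) or symbols, tags were matched after CATG to GENCODE M21 transcripts, and counts were summed per gene. The quasi-likelihood test of edgeR 4.0.16 (in R 4.3.3) was used after TMM scaling and filterByExpr, with a minimum count of 10, a minimum total of 15 and Benjamini-Hochberg adjustment, with group as the only term, over 2993 genes and separately over 3907 tags. CPM of tags use the gene-level scaling. Intervals of log2 changes use the test's degrees of freedom. Spread between replicates exceeded counting error (chi-square over degrees of freedom 44.1 in Day 21 AM and 59.4 in Pre AM). Such a value cannot tell separate mice from separate preparations of the same material. Each replicate counted as 1 sample. The members, the 8 pathway lists and 13 cell type lists, and the rule for named genes were chosen with earlier results of these data known. The rule names all 9 members, every called gene and up to 3 others of smallest p per list (a selection of which is given), and 3 genes of most similar pattern for each of 3 members, of which 1 is not reported here. Alternatives were other scalings, filters, tests, gene naming, tag choices, a replicate term and leaving out each library, with limma 3.58.1 and DESeq2 1.42.0 among them.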

Additional observations from a re-analysis of the deposited data

How the results depend on the processing

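With 2 libraries per group, single libraries weigh heavily. With 1 library left out, its group has 1 sample, which is assumed to vary like the other group. The number of genes higher then ran from 0 to 63 and of genes lower from 0 to 18, that of the 9 genes called higher from 0 to 1 (Gpnmb), of tags higher from 16 to 71, of tags lower from 1 to 25 and of the 9 genes' tags called higher from 0 to 5. Of the 9 genes, 1 (Gpnmb) was called higher with DESeq2 size factors, without Ctsd, without the count filter, with the DESeq2 test, limma-voom and the likelihood ratio test, and 0 were lower in any fit. Genes higher and lower numbered 36 and 5 without the count filter (tags 30 and 4, of which 2 of the 9 genes), 34 and 7 with the likelihood ratio test, 11 and 0 with tags of 1 gene only, 9 and 0 with the main tag only and 9 and 0 with total counts. Genes higher numbered 9 with limma-voom, and genes lower numbered 4 with DESeq2 and 0 with upper-quartile scaling. The cause was not tested.

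The labels number the libraries 1 and 2 in each group without saying that a number pairs them, so the numbers were not used as pairs. With the replicate block, 31 genes were higher and 9 lower, 1 of the 9 genes was higher (Gpnmb, adjusted p = 0.00581), and 110 tags were higher and 46 lower. Among the higher were 6 tags of the 9 genes, Gpnmb tags 1 to 5 (adjusted p 5.52e-07 to 0.00633, edgeR) and Lgals3bp tag 2 (adjusted p = 0.0311). Same-numbered libraries deviated from their group means together (r = 0.54 across genes). Under the block the log2 change turned to 0.31 for Spp1 tag 3, 0.051 for Cd44 tag 1 and -0.69 for Itgb5. With total counts alone it was -0.092 for Lgals3 tag 2 and -0.11 for Itgb1, and with limma-voom it was -0.69 for Itgb5.

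With each library left out in turn, these log2 changes crossed 0. At gene level, Spp1 ran from -0.24 to 1.95, Lgals3 from -0.69 to 0.66, Lgals8 from -1.04 to 0.56, Ezr from -2.45 to 2.31, Itgb5 from -3.15 to 1.44, Mgat1 from -0.11 to 1.24, Mgat4b from -1.55 to 0.47, Msn from -0.18 to 1.85 and Plaur from -1.30 to 0.15. At tag level, Spp1 tag 1 ran from -0.19 to 1.76, Spp1 tag 3 from -0.85 to 1.90, Spp1 tag 4 from -0.28 to 2.01, Gpnmb tag 4 from -0.34 to 8.73, Cd44 tag 1 from -1.65 to 2.85, Lgals3 tag 1 from -0.58 to 0.51, Lgals3 tag 2 from -0.45 to 1.48 and Lgals8 tag 1 from -1.20 to 0.74. Over all tested genes the median change (log2) was -0.07 with TMM and -0.29 with total counts.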
